A study of Mus musculus with 2 samples.

Results

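The genes described here are 32 transcriptional targets and regulators of p53, chosen by name and matched by symbol to array probe sets that carry a single gene symbol. Of the 32, 30 were matched, out of 18193 genes on the array, and 29 were measured on both arrays. Bax and Gdf15 had no such match and are not analysed here, and Ddb2 was measured on the wildtype array alone. The arrays held RNA of MEFs, fibroblasts grown in culture from mouse embryos. They came from wildtype mice and from Malat1 knock-out mice, both on the C57BL/6 strain at embryonic day 13.5. The cells of both genotypes were kept for 2 weeks without treatment, so no DNA-damaging agent was applied to either. Each genotype had 1 Affymetrix Mouse430_2 array, and the labels give neither the knockout allele nor the number of embryos behind each RNA. With 1 array per genotype no difference has a replicate check and none carries a p-value.

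p53 is a transcription factor that is held low by constant degradation and accumulates after DNA damage, oncogene activity or nutrient stress. Its targets stop the cell cycle, start apoptosis, repair DNA and adjust metabolism, and some of them, led by Mdm2, act back on p53 itself. In fibroblast cultures the pathway is known for its part in the growth arrest that follows passage in culture.

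The p53 response genes differed little between the arrays, and so did measured genes in general. The SD of the differences across genes was 0.215 for the members and 0.241 for all measured genes. In the knockout 15 of the 29 measured members were lower and 14 higher, where 59.8% of all 11294 measured genes were lower and 39.2% higher. Their median difference, knockout minus wildtype, was -0.02 on the log2 scale, against -0.05 for all measured genes. With the values as deposited, differences of under 1.1-fold were found for 18 of the 29, and for 49.7% of all measured genes. This count was not made under other scalings. Dram1, a lysosomal membrane protein that promotes autophagy, was the one member past 1.5-fold, at 1.51-fold lower in the knockout array. None was 1.5-fold higher, and over all genes the shares past this mark were 1.61% lower and 0.832% higher. No member passed 2-fold, a mark passed by 0.266% of genes in the lower and 0.0708% in the higher direction.

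**Figure D1:**
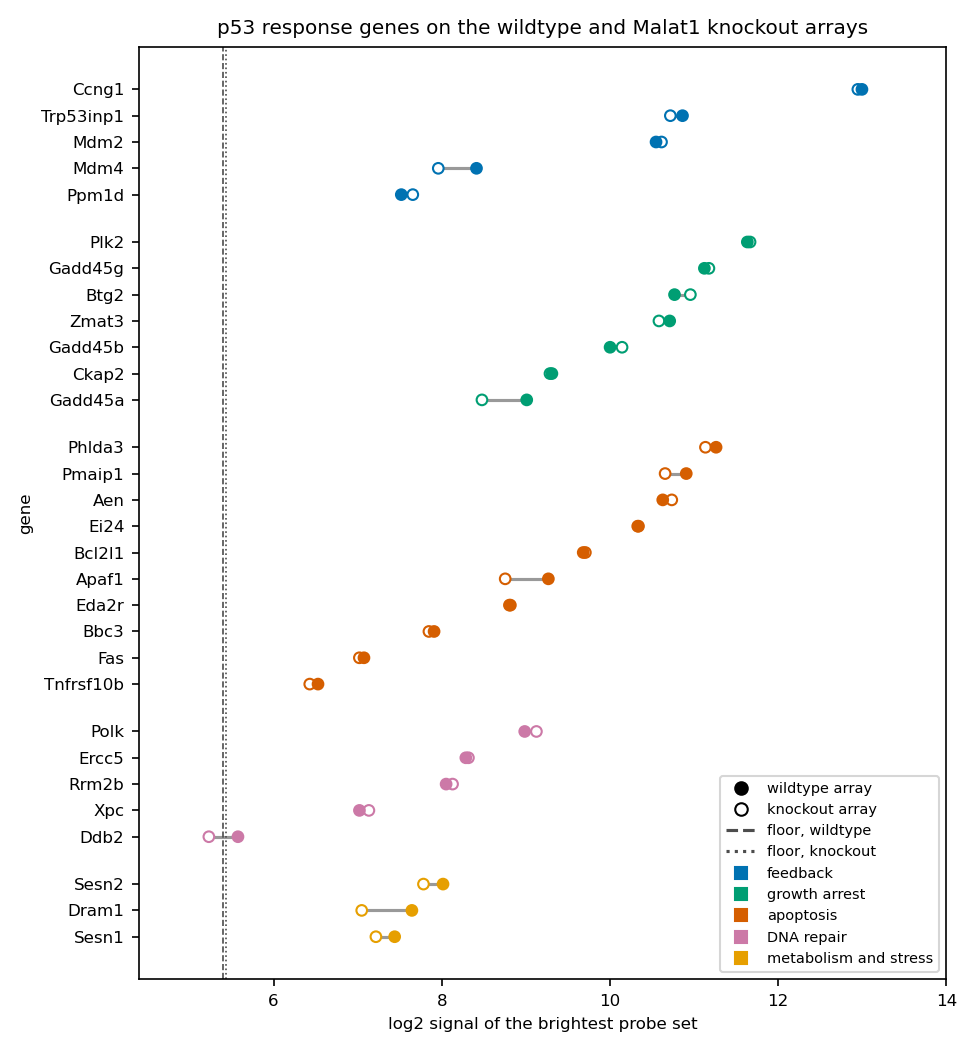
Log2 signal (horizontal axis) of the brightest probe set of each of 30 p53 response genes (vertical axis, ordered by role) in wildtype (filled) and Malat1 knockout MEFs (open), from 1 array each. The vertical lines mark each array's floor (5.39 on the wildtype, 5.44 on the knockout), and Ddb2 is the gene that crosses it.

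The upstream sequences of 5 members are shown to set members that differed beside members that hardly did. Gadd45a, Apaf1 and Dram1 had the largest differences, and Mdm2 and Ccng1 are classic p53 targets whose signals nearly coincided on the arrays. No array result depends on these sequences. Each sequence is the 250 bases before the annotated start in RefSeq, build GRCm38.p6, 5′ to 3′ on the gene's strand. The capitals mark matches to the p53 consensus decamer, of which a full binding site holds a pair. A pair was accepted with up to 2 mismatches outside the fixed C and G and a gap of up to 13 bases, and its decamers are in capitals as well. The pattern reads the same on both strands. The windows are chr10:117710759-117711008 for Mdm2, chr11:40755287-40755536 for Ccng1, chr6:67037408-67037657 for Gadd45a, chr10:91082744-91082993 for Apaf1 and chr10:88357076-88357325 for Dram1, all on the minus strand.
Mdm2: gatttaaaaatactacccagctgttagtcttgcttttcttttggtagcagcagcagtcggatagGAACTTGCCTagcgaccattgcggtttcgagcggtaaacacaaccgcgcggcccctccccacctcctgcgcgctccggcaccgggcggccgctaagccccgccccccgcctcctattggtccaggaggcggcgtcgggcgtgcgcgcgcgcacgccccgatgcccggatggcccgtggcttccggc
Ccng1: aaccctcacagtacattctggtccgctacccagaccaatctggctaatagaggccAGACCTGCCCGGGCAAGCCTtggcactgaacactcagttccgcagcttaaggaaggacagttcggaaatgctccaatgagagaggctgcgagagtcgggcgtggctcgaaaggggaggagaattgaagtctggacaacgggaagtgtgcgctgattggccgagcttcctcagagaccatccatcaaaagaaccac
Gadd45a: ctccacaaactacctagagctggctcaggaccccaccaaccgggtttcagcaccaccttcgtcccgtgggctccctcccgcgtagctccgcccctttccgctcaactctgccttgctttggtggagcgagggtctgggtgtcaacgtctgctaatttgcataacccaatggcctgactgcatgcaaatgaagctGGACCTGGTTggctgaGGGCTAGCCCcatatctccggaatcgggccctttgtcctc
Apaf1: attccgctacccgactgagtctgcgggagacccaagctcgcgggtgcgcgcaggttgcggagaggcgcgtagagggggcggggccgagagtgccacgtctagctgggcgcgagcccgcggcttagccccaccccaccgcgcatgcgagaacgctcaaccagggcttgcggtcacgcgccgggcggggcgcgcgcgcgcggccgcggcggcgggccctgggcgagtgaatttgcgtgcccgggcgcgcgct
Dram1: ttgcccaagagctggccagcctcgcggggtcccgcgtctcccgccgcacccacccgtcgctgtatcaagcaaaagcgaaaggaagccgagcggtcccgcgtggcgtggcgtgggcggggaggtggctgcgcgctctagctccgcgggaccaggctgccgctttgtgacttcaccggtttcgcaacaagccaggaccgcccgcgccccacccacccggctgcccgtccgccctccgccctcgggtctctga

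An exact decamer began 186 bases before the start of Mdm2, 185 before that of Ccng1 and 40 before that of Gadd45a. In Ccng1 it was the second of an adjacent pair with 1 mismatch, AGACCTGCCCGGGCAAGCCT, and in Gadd45a of a pair with 2 mismatches and a gap of 6 bases. The Apaf1 and Dram1 windows held neither, which says only that these letters are not in these windows. RefSeq windows were at hand for 25 of the 32 members, and 10 of the 25 held an exact decamer (Aen, Bax, Ccng1, Ckap2, Ei24, Gadd45a, Mdm2, Polk, Ppm1d and Sesn1). Over all 27025 genes with a window, 8.2% held one. A pair was found for 5 members (Bax, Ccng1, Ckap2, Gadd45a and Sesn1), against 3.87% of all genes. Members with and without a decamer lay on both sides of 0 in the array comparison. Of 9 measured members with one, 4 had lower knockout signals and the median difference was 0.01, and of 14 without one, 7 were lower and the median was -0.02.

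The labels were checked through Malat1, a nuclear long noncoding RNA. Its brightest probe set read 9.80 on the wildtype and 4.53 on the knockout array, at least 20.6-fold lower, and 6 of its 7 probe sets were above the floor (each array's median signal) on the wildtype array alone. All 11 fibroblast markers were measured on both arrays, with a mean log2 signal of 11.0045 and 10.73, and 9 of them were lower in the knockout array. Markers of other cells were present on both arrays. Of 6 macrophage markers, all measured, 5 were lower in the knockout array, with means of 7.90 and 7.59. Of 6 epithelial markers, 4 were measured on both arrays and all 4 were higher in the knockout array, with means of 5.84 and 6.39 over the 6, while Cdh1, a defining adhesion protein, was below the floor on both. Of 5 endothelial markers, Emcn read 7.53 and 8.996 and Kdr 6.04 and 6.51, both higher in the knockout array, while the defining Cdh5, Tie1 and Pecam1 lay under both floors, and the means over the 5 were 5.03 and 5.43. Of 4 skeletal muscle markers, Des differed by 0.44 and Mylpf by -0.60, while the defining factors Myod1 and Myog were below the floor on both, and the means over the 4 were 5.84 and 6.03. Of 5 neural and glial markers, 3 were measured, with means of 7.53 and 7.82. Gap43 and Sox10 were higher in the knockout array by 0.86 and 0.33, and Tubb3 differed by -0.32. Since the RNA is bulk, fewer cells of a type and less RNA per cell cannot be told apart. Xist, the RNA that silences one X chromosome in female cells, read 4.50 and 11.49, and the Y-linked Eif2s3y read 8.57 and 2.81, so sex and genotype cannot be told apart. The part of cell makeup in the differences below was not tested.

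The feedback genes were compared first, since they set p53 protein and activity. Mdm2, the ubiquitin ligase that marks p53 for degradation and is itself a p53 target, read 10.55 on the wildtype and 10.61 on the knockout array, a difference of 0.07. Its second measured probe set read 9.02 and 9.03, so the difference was small in both. Ccng1, cyclin G1, which recruits a phosphatase to Mdm2, read 12.997 and 12.95, with differences of -0.05 and 0.13 for the remaining probe sets. Trp53inp1, a stress-induced nuclear protein that promotes p53 phosphorylation, read 10.86 and 10.72. These 3 genes differed by less than 0.199, the pooled SD of differences among a gene's own measured probe sets, computed over 4881 genes. That SD measures disagreement within these arrays, not variation between cultures.

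Mdm4, the Mdm2 relative that blocks p53's activation domain, had the largest difference of the feedback genes and its probe sets disagreed. The brightest read 8.41 on the wildtype and 7.96 on the knockout array, 1.37-fold lower. The next read 6.24 and 6.06, also lower, and the third 5.79 and 6.14, higher in the knockout array by 0.35, while the remaining one was below the floor on both. The mean over the 3 measured probe sets was -0.10. The probe sets of Ppm1d, the phosphatase Wip1 that switches p53 signalling off, disagreed as well, at 7.52 and 7.66 for the brighter and 6.72 and 6.42 for the dimmer. For both genes the direction therefore depended on the probe set. Of the 5 feedback genes 3 were lower and 2 higher, with a median of -0.05.

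**Figure D2:**
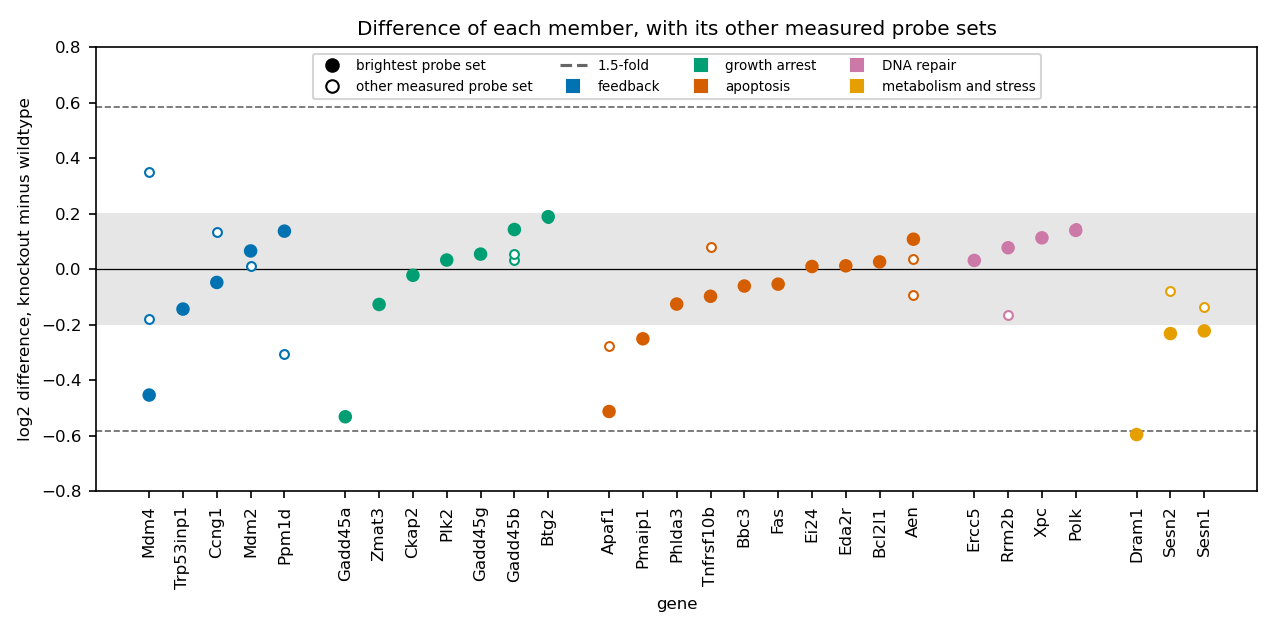
Log2 difference, knockout minus wildtype (vertical axis), of 29 p53 response genes measured on both arrays (horizontal axis, by role). Filled points are the brightest probe set, open points the other measured probe sets, the grey band is plus or minus the pooled probe set SD of 0.199 and the dashed lines mark 1.5-fold. The 7 genes outside the band by their brightest probe set, with the values as deposited, are all below it. Of 13 members with another measured probe set, 6 have probe sets on both sides of 0 (Mdm4, Ppm1d, Ccng1, Tnfrsf10b, Aen and Rrm2b).

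Growth arrest genes lay on both sides of 0, with Gadd45a apart from the rest. Gadd45a, which binds PCNA and holds cells before mitosis, read 9.01 on the wildtype and 8.48 on the knockout array, 1.45-fold lower from its only probe set. A difference of at least this size was found in 3.45% of measured genes. Its relatives did not follow it. Gadd45b read 10.002 and 10.14, with its other 2 probe sets higher by 0.03 and 0.05, and Gadd45g read 11.12 and 11.18. The Gadd45 family thus held 1 gene lower and 2 slightly higher on the knockout array, signs that stayed the same under 3 other scalings of the arrays.

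Btg2, an antiproliferative cofactor of mRNA deadenylation, had the highest difference of all members, at 10.77 and 10.96, and its second probe set differed by 0.18. This was 1.14-fold, within the pooled probe set SD as deposited and beyond it under the other scalings. Plk2, a polo-like kinase induced by stress, read 11.63 and 11.67. A second Plk2 probe set, below the floor on both arrays, read 3.53 and 4.59. Ckap2, a microtubule-associated protein of dividing cells, read 9.31 and 9.29, and Zmat3, an RNA-binding zinc finger protein of the p53 response, 10.71 and 10.58. Of the 7 arrest genes 3 were lower and 4 higher, with a median of 0.03.

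Among apoptosis genes, the caspase platform gene Apaf1 was the one with a difference over 0.32 log2 units. Apaf1 encodes the scaffold of the apoptosome, on which cytochrome c activates caspase-9. It read 9.27 on the wildtype and 8.75 on the knockout array, 1.43-fold lower, and its second probe set read 6.62 and 6.34, lower as well. A difference at least as large as that of the brighter probe set was found in 4.01% of measured genes. Pmaip1, the BH3-only protein Noxa, was next, at 10.91 and 10.66 from 1 probe set, 1.19-fold lower. Bbc3, the BH3-only protein Puma, read 7.91 and 7.85, and Bcl2l1, the survival protein Bcl-xL, 9.68 and 9.71. Of these 3 BCL2 family genes, Pmaip1 alone differed by more than the pooled probe set SD, and came within it, at -0.19, with the median difference set to 0.

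The death receptors differed by less than the pooled probe set SD. Fas read 7.08 and 7.02, and Tnfrsf10b, the mouse TRAIL receptor, 6.53 and 6.43, with its other probe set at 6.24 and 6.32. Eda2r, the X-linked ectodysplasin A2 receptor, read 8.80 and 8.82, a difference of 0.01 between arrays that differed in Xist as described above. Phlda3, which restrains the kinase Akt, read 11.26 and 11.14, and Ei24, an endoplasmic reticulum protein, 10.33 and 10.34. Aen, a nuclease of apoptotic cells, had 4 probe sets. They read 10.63 and 10.74, 9.56 and 9.60, 7.38 and 7.29, and 5.25 and 5.51, the last above the floor on the knockout array alone, so that the third went the other way. Of the 10 apoptosis genes 6 were lower and 4 higher, with a median of -0.06, and under each of the other 3 scalings 4 were lower and 6 higher, with medians of 0.003, 0.05 and 0.05.

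All 4 DNA repair genes measured on both arrays had slightly higher knockout signals by their brightest probe set, where 39.2% of all measured genes were higher. The median difference of the 4 was 0.09. Polk, a DNA polymerase that copies past lesions, read 8.99 and 9.13, and its second probe set differed by 0.15. Xpc, the damage sensor of nucleotide excision repair, read 7.02 and 7.13. Rrm2b, the p53-inducible subunit of ribonucleotide reductase, read 8.05 and 8.13, but its second measured probe set read 6.13 and 5.97, lower in the knockout array. Its remaining 2 probe sets lay under both floors, at 3.36 and 3.28 and at 3.02 and 3.20. Ercc5, the excision endonuclease Xpg, read 8.29 and 8.32. None of the 4 exceeded the pooled probe set SD as deposited, but with quantile normalization Polk and Xpc did, at 0.23 and 0.22, and the median of the 4 rose to 0.21. Ddb2, which recognizes ultraviolet damage in chromatin, went the other way. It read 5.58 on the wildtype and 5.23 on the knockout array, the latter under the floor, which makes it at least 1.102-fold lower. Its second probe set read 5.13 and 4.73, under the floor on both.

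Metabolism and stress genes had lower knockout signals in all 3 measured cases, where 59.8% of all measured genes were lower. The median difference of the 3 was -0.23. It was -0.17 with the median difference of the arrays set to 0, and -0.12 with quantile normalization or loess centring. Under each of these scalings Sesn1 and Sesn2 lay within the pooled probe set SD. Without probe sets ending in _x_at or _s_at the median was -0.41, because Sesn1 was then not measured on both arrays. The values of Sesn2 and Dram1 did not change in that setting. Dram1 read 7.65 on the wildtype and 7.05 on the knockout array from 1 probe set, a difference of -0.60 that 2.25% of measured genes reached in either direction. Its 1.51-fold ratio lay just past the 1.5-fold mark and dropped under it with the other scalings of the arrays, at -0.54, -0.48 and -0.48. Sesn2 and Sesn1 encode sestrins, leucine and oxidative stress sensors that restrain the growth kinase mTORC1. Sesn2 read 8.02 and 7.78, and its second probe set 7.13 and 7.05. Sesn1 read 7.44 and 7.22, and a second probe set 6.71 and 6.58. Another Sesn1 probe set read 5.72 and 5.35, above the floor on the wildtype array alone, and the remaining one was below it on both. Every Sesn1 and Sesn2 probe set above the floor on both arrays was lower in the knockout array, with differences of -0.23 to -0.08.

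**Figure D3:**
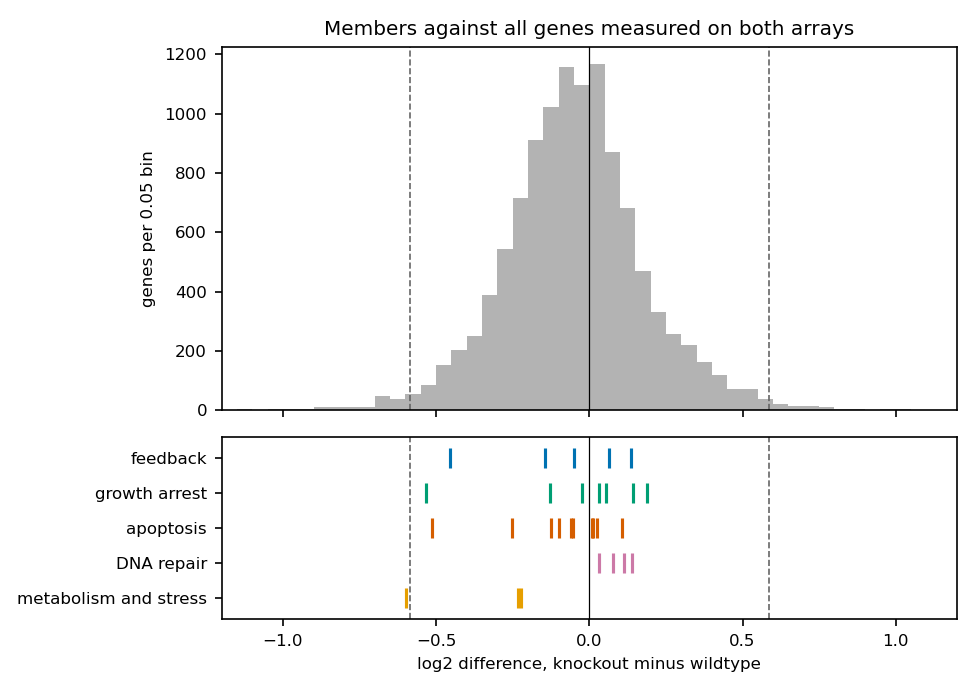
Upper panel, number of genes (vertical axis) in bins of 0.05 of the log2 difference, knockout minus wildtype (horizontal axis), for 11294 genes measured on both arrays, drawn from -1.2 to 1.2; lower panel, a tick for each of the 29 p53 response genes by role. The dashed lines mark 1.5-fold, and Dram1 is the one tick beyond them.

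Smaller sizes were counted next. A difference of at least 0.32 log2 units was found for 4 members, Dram1, Gadd45a, Apaf1 and Mdm4, which is 13.8% of the 29, and all 4 were lower in the knockout array, under the other 3 scalings as well. Over all measured genes 9.91% were lower and 5.96% higher by this size. By more than the pooled probe set SD, 7 members were lower and 0 higher with the values as deposited, against 22.9% and 12.1% of all genes. The 7 were those 4 with Pmaip1, Sesn1 and Sesn2. Those 7 are 24.1% of the measured members, near the share of all genes that were lower by this size. This one-sidedness was not kept under the other scalings, with 4 lower and 3 higher after setting the median to 0, 5 and 5 with quantile normalization, and 5 and 4 with loess. Btg2 and Polk were beyond the SD on the higher side under all 3, at 0.22 and 0.23 after quantile normalization.

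**Figure D4:**
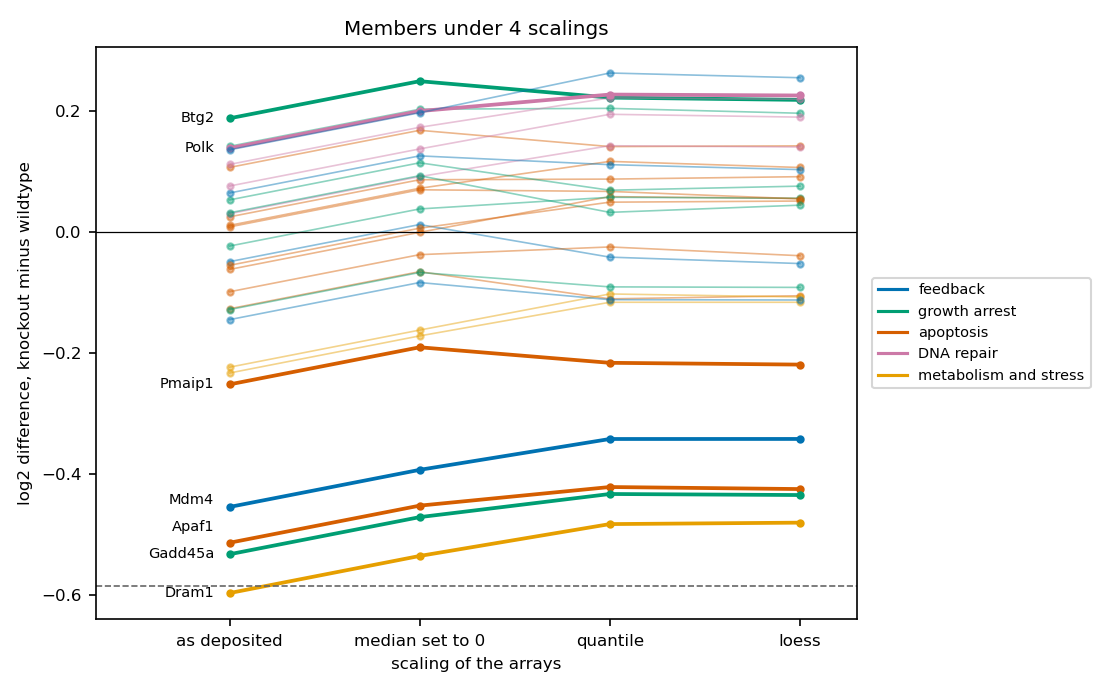
Log2 difference, knockout minus wildtype (vertical axis), of the 29 measured members (lines, coloured by role) under 4 scalings of the arrays (horizontal axis), with the dashed line at 1.5-fold lower. Dram1, Gadd45a, Apaf1 and Mdm4 stay the lowest lines, and Dram1 is under the dashed line with the values as deposited and above it with the other 3 scalings.

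The balance of directions depended on the scaling of the arrays, but the order of the members at its lower end did not. With the median difference of measured probe sets set to 0 there were 11 members lower and 18 higher. With quantile normalization the numbers were 12 and 17, and with loess centring 12 and 17. Lower genes made up 47.6%, 44.8% and 46.6% of all measured genes under these scalings. The median over members turned from -0.02 to 0.04, 0.06 and 0.06. Dram1, Gadd45a, Apaf1 and Mdm4 stayed the 4 lowest members under each scaling, at -0.34 for Mdm4 and -0.48 for Dram1 with quantile normalization.

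Other genes of the pathway were then compared, from lists put together by role but with earlier results of these data known. Of 27 measured further p53 targets 15 were lower and 12 higher, with a median of -0.04. Cdkn1a, the cell cycle inhibitor p21 and the best known p53 target, had probe sets that disagreed, at 12.32 and 12.53 for one and 12.50 and 12.22 for the other. Past 1.5-fold were Perp, a desmosome protein, at 7.63 and 8.37, Cd80, a ligand of T cell costimulation, at 7.49 and 6.80, and Sfn, an epithelial 14-3-3 protein, at 7.63 and 7.005. Perp and Sfn are also expressed in epithelium, whose 4 markers measured on both arrays were higher in the knockout array as given above, and Cd80 by antigen-presenting cells such as macrophages, of whose 6 markers 5 were lower. The part of either cell type in these values was not tested. Perp stayed past 1.5-fold under the other 3 scalings. Cd80 stayed past it at -0.63 with the median difference set to 0, and came just under it at -0.58 with quantile normalization and with loess centring. The remaining measured probe sets of Cd80 differed by -0.57 and -0.91 as deposited. Sfn came under the mark with all 3, at -0.51 with quantile normalization. The balance of the 27 turned to 12 lower and 15 higher with the median set to 0, and to 11 and 16 with quantile normalization or loess.

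Regulators that act on p53 were more often lower than higher in the knockout array, by a margin that depended on the scaling. Of 27 measured kinases, partners and turnover factors 21 were lower and 6 higher, with a median of -0.12, where 59.8% of all genes were lower. The numbers were 20 and 7 with the median difference set to 0, 16 and 11 with loess centring, and 15 and 12 with quantile normalization. Their medians were then -0.06, -0.02 and -0.01, and 47.6%, 46.6% and 44.8% of all measured genes were lower. Cdkn2a encodes p16 and Arf, the latter an inhibitor of Mdm2. It read 8.45 and 7.03, 2.67-fold lower from 1 probe set. That probe set was matched by gene symbol only, so p16 and Arf were not told apart here. The part of Cdkn2a in the values of the p53 response genes was not tested. The DNA-dependent protein kinase gene Prkdc read 7.35 and 6.92, and the checkpoint kinase gene Chek1 7.64 and 7.29. Trp53 itself is not analysed here. Genes repressed through p53 and the DREAM complex, which silences cell cycle genes, had 9 of 11 lower with a median of -0.07. Over all measured genes 59.8% were lower, with a median of -0.05. After quantile normalization 5 of the 11 were lower, near the share of 44.8% over all measured genes. Of the 11, Cdc25c, Plk1 and Bub1, which drive mitosis or guard it, had the largest differences, at -0.56, -0.49 and -0.39. A second Cdc25c probe set read 6.75 and 6.69.

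Genes of the integrated stress response, the program of the factor ATF4 that shares Sesn2 with the p53 response, were mostly lower in the knockout array. Of 12 measured genes 11 were lower and 1 higher, where 59.8% of all measured genes were lower. The median of the 12 was -0.32, and 6 were lower by at least 0.32 log2 units, against 9.91% of all genes. Vldlr, the very low density lipoprotein receptor, read 8.64 and 8.05, Trib3, a pseudokinase that binds Akt, 9.14 and 8.55, and Cebpb, a transcription factor of inflammation and fat, 10.999 and 10.50. The second probe sets of Trib3 and Cebpb differed by -0.77 and -0.57, and the second of Vldlr, at 7.21 and 6.36, by -0.84, while a dimmer Vldlr probe set near the floor read 5.54 and 5.64. The numbers were the same under the other scalings, 11 lower and 1 higher, with medians of -0.26, -0.22 and -0.22. Lower genes then made up 47.6%, 44.8% and 46.6% of all measured genes. By the brightest probe set none of the 12 passed 1.5-fold, which the second probe sets of Trib3 and Vldlr did.

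The repair and cell death genes outside the list were balanced. Of 15 further genes, mostly of nucleotide excision repair and lesion bypass, 8 were lower and 7 higher, with a median of -0.05. The 15 included Rrm1 and Rrm2, subunits of ribonucleotide reductase. The largest were Poli, a polymerase of lesion bypass, at 0.35, Ercc1, a subunit of an excision nuclease, at 0.34, and Rev1 at -0.28. Of 16 further BCL2 family genes and caspases 9 were lower, 6 higher and 1 equal, with a median of -0.06. The BH3-only gene Bid read 8.58 and 7.98, 1.52-fold lower, with its second measured probe set at 7.55 and 7.17, and came under 1.5-fold with the other scalings, at -0.54, -0.49 and -0.49. Casp9, the caspase that Apaf1 activates, read 6.44 and 6.95, but a second probe set read 6.63 and 6.59. Bcl2l11, the BH3-only protein Bim, differed by -0.38, and its other 2 measured probe sets by -0.13 and -0.32.

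**Figure D5:**
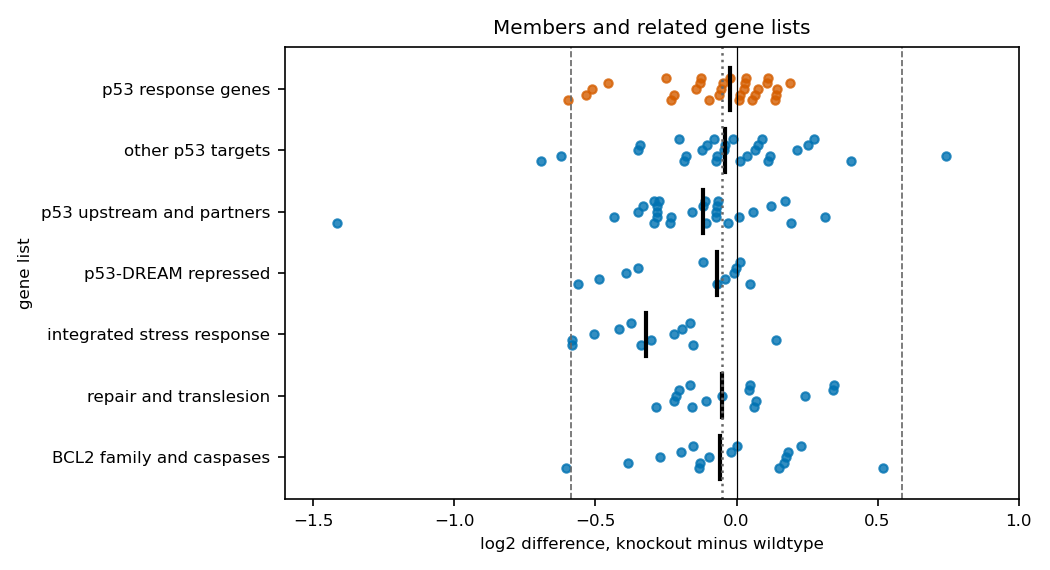
Log2 difference, knockout minus wildtype (horizontal axis), of each gene measured on both arrays in the p53 response genes and 6 related lists (vertical axis). Black bars are list medians, the dotted line is the median of all measured genes at -0.05 and the dashed lines mark 1.5-fold. The median of the integrated stress response lies at -0.32 and that of the p53 response genes at -0.02.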

How the data were processed

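Biotin-labelled RNA made from 100 ng of total RNA was hybridized to 1 array per genotype, per the labels. The authors deposited 1 value per probe set, taken here as a log2 signal from its range of 2.09 to 14.65, with summarization and normalization methods not given in the sources used here. Compared in sorted order, the arrays' values lay up to 0.133 apart. Gene names came from the platform annotation, with 34945 of 45037 non-control probe sets holding 1 symbol. Of those, 34741 had a gene in RefSeq GRCm38.p6, with no change of symbol.

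A gene was represented by its brightest probe set by the mean of both arrays. It was measured at or above the array's median (5.39 and 5.44), and measured on 1 array it has a bound against the other's floor. The deposited scaling was kept, since the median difference of measured probe sets was -0.06, under the limit of 0.1. Counts use marks of 1.5-fold and, as alternatives, 2-fold and a smaller size of 0.32 log2 units. No test was run, since precision is limited by the number of arrays. All members are named, with every measured probe set where they disagree, along with Malat1, Cdkn1a, Cdkn2a, Xist and the 3 largest genes of each related list, and a few marker genes. Members and lists were chosen with earlier results of these data known. Counting was checked on simulated data with changes larger than the difference of any member, so the check does not bear on counts at smaller sizes. Python 3.11.15, pandas 2.3.3, statsmodels 0.14.6 and matplotlib 3.10.9 were used.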

Additional observations from a re-analysis of the deposited data

How the results depend on the processing

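No paired analysis was possible because there is 1 array on each side. The single member lower by 1.5-fold, Dram1, depended on the setting. The number lower was 0 with the median difference set to 0, with quantile normalization, with loess centring (span 0.3), with the floor at the 75th percentile, with 16 or 64 added to linear values and with a 2-fold mark. It was 4 with the mark at 0.32 log2 units. Dram1 kept its direction in all 10 alternatives that measured it, from -0.60 to -0.43. With 1 probe set, it could change only with the scalings and the added constants. With the floor at the 75th percentile it was not measured, and under the other settings named its value lay short of the mark. Of the 29 members 20 kept their sign in every alternative that measured them, 9 lower and 11 higher, and 9 turned at least once. For the 12 members with 1 probe set, Gadd45a among them, the floors and the choices of probe set could not change the value. Gadd45a ranged from -0.53 to -0.43 and Apaf1 from -0.51 to -0.39. Mdm4 went to -0.10 with the mean over measured probe sets, -0.04 with the median over all probe sets and -0.18 without probe sets ending in _x_at or _s_at. Ppm1d turned to -0.09 under the first 2 of these, and Plk2 went to 0.55 with the median over all its probe sets, one of them below the floor. Eda2r, Bcl2l1 and Mdm4 were each short of 1.5-fold, so leaving them out could not change the number past that mark. Signal near the floor limits Ddb2 to a bound.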
